A study of Rattus norvegicus with 6 samples.

Results

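The miR-132 and miR-212 locus of the rat gives rise to 4 mature microRNAs (miRNAs), rno-miR-132-5p, rno-miR-132-3p, rno-miR-212-5p and rno-miR-212-3p, and all 4 had probes on the array, out of 719 rat miRNAs. They were taken by name, and the locus was chosen by the levels of miR-132-3p, which were lower in IL-8 arrays than in control arrays, so the levels in that comparison are given as a description, without a test. The cells were rat primary skeletal muscle cells (RSkMC) from limb muscle of newborn animals, bought frozen at the second passage and differentiated in medium with 2% horse serum until day 11. The control group (n = 3 samples) was untreated, and the treated group (n = 3 samples) differentiated with 1 ng/ml of recombinant interleukin-8 (IL-8), a neutrophil-attracting chemokine. Total RNA was measured on 1 single-colour Agilent miRNA array per sample. The growth protocol describes IL-8 for all 6 samples, and the groups here follow the sample titles. The arrays of the control group shared 1 slide and those of the IL-8 group a second, each with its own scan, so slide, scan and treatment cannot be told apart. Nothing in the labels states that replicates were separate cultures, and their spread may be technical.

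A miRNA is cut from a hairpin whose 2 strands, the 5p and 3p arms, can each enter the silencing complex, where bases 2 to 8, the seed, choose the target transcripts. miR-132 and miR-212 are processed from a shared noncoding transcript, best known in neurons, where the transcription factor CREB induces it after synaptic activity. Targets described for miR-132 include the GTPase-activating proteins p250GAP and p120RasGAP, and in heart muscle miR-132 and miR-212 act on the atrophy-related factor FoxO3.

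The mature sequences are shown because the 3p arms share their seed while the array probes read the other end. They come from RefSeq (build GRCr8, plus strand of chromosome 10), are written 5′ to 3′, and have the seed in capitals.
miR-132-5p: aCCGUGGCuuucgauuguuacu
miR-132-3p: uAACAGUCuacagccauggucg
miR-212-5p: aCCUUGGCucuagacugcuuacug
miR-212-3p: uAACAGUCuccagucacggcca
The 3p arms were identical at 17 of 22 positions, and no other mature rat miRNA in the RefSeq table carried their seed. With bases counted from 1 at the 5′ end and the miR-132-3p base given first, they differ by A10C, C14U, U17C, U20C and G22A. The 5p arms have different seeds and matched at 14 of the first 22 positions. The table holds the hairpin of miR-132, shown to place its arms (capitals) on the precursor, at chr10:60522033-60522133.
Mir132: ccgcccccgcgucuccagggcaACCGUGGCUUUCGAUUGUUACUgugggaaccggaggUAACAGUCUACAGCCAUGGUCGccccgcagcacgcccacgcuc
Mir212 lies upstream at chr10:60521740-60521850, with 182 bases between the hairpins. No other gene of the annotation overlaps the pair. The nearest genes are the lncRNA LOC120095261, 9 bases downstream, and the protein-coding Ovca2 (2252 bases downstream) and Hic1 (3928 bases upstream).

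Each arm had 2 probes of 10 spots per array. Those of the 3p arms carry the results and are printed 5′ to 3′, with capitals at the bases that pair with the 5 positions that differ between the arms.
miR-132-3p, 16 bases: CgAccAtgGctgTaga
miR-132-3p, 15 bases: CgAccAtgGctgTag
miR-212-3p, 14 bases: TgGccGtgActgGa
miR-212-3p, 13 bases: TgGccGtgActgG
All of them pair with the 3′ part of their miRNA, from base 7 or 8 of miR-132-3p and from base 9 or 10 of miR-212-3p to base 22. All 5 differing positions therefore lie under every probe, and each probe had 5 mismatches at its best ungapped match to the other arm. The mature rat miRNA closest to the miR-212-3p probes was miR-382-3p, with 3 mismatches to the 13-base probe and 4 to the 14-base probe. Cross-hybridisation was not measured. The shorter probe of an arm lies within the longer, so the probes of an arm are not independent. In rn4, the build of the array design, the files place the 16-base probe of miR-132-3p at chr10:62480792-62480806 and the 14-base probe of miR-212-3p at chr10:62480514-62480526, spans 1 base shorter than the probes.

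Only the 3p arms gave a signal. Neither probe of miR-132-5p or miR-212-5p was well above background on any array by the software's call, which counted here when it held for over 50% of a probe's spots. The background-subtracted signals of miR-132-5p ran from -1.74 to 2.40 and those of miR-212-5p from -4.80 to -0.820. The lowest signal called well above background was 12.3 on 1 array and up to 17.1 on the others. None of the 24 probe values of the 5p arms exceeded the 95th percentile of the negative control spots of its array, which lay between 7.92 and 11.9. Of the 120 spots of miR-212-5p a single spot, on IL-8 array 3, was called well above background, and of the 120 spots of miR-132-5p none was. The levels of the 5p arms therefore have only a bound in both groups, and no fold is given.

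Both probes of miR-132-3p and of miR-212-3p were well above background on all 6 arrays, in every spot. The 16-base probe of miR-132-3p read 44.9, 50.1 and 58.4 on the control arrays and 48.4, 46.6 and 44.1 on the IL-8 arrays. These unscaled signals overlapped between the groups, and control array 3 was the highest. The 14-base probe of miR-212-3p read 337, 395 and 367 on the control arrays and 403, 420 and 450 on the IL-8 arrays. Here every IL-8 array was above every control array. The shorter probes did the same: that of miR-132-3p overlapped (25.4, 27.8 and 32.5 against 28.1, 25.8 and 24.7), and that of miR-212-3p did not (109, 121 and 109 against 144, 152 and 143). The spots of a probe varied by a coefficient of variation of 4.47% to 11.2% for miR-132-3p and 2.65% to 10.6% for miR-212-3p. The standard error of a probe's log2 mean over its spots was therefore at most 0.054, from spots that share 1 array and 1 sample.

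**Figure D1:**
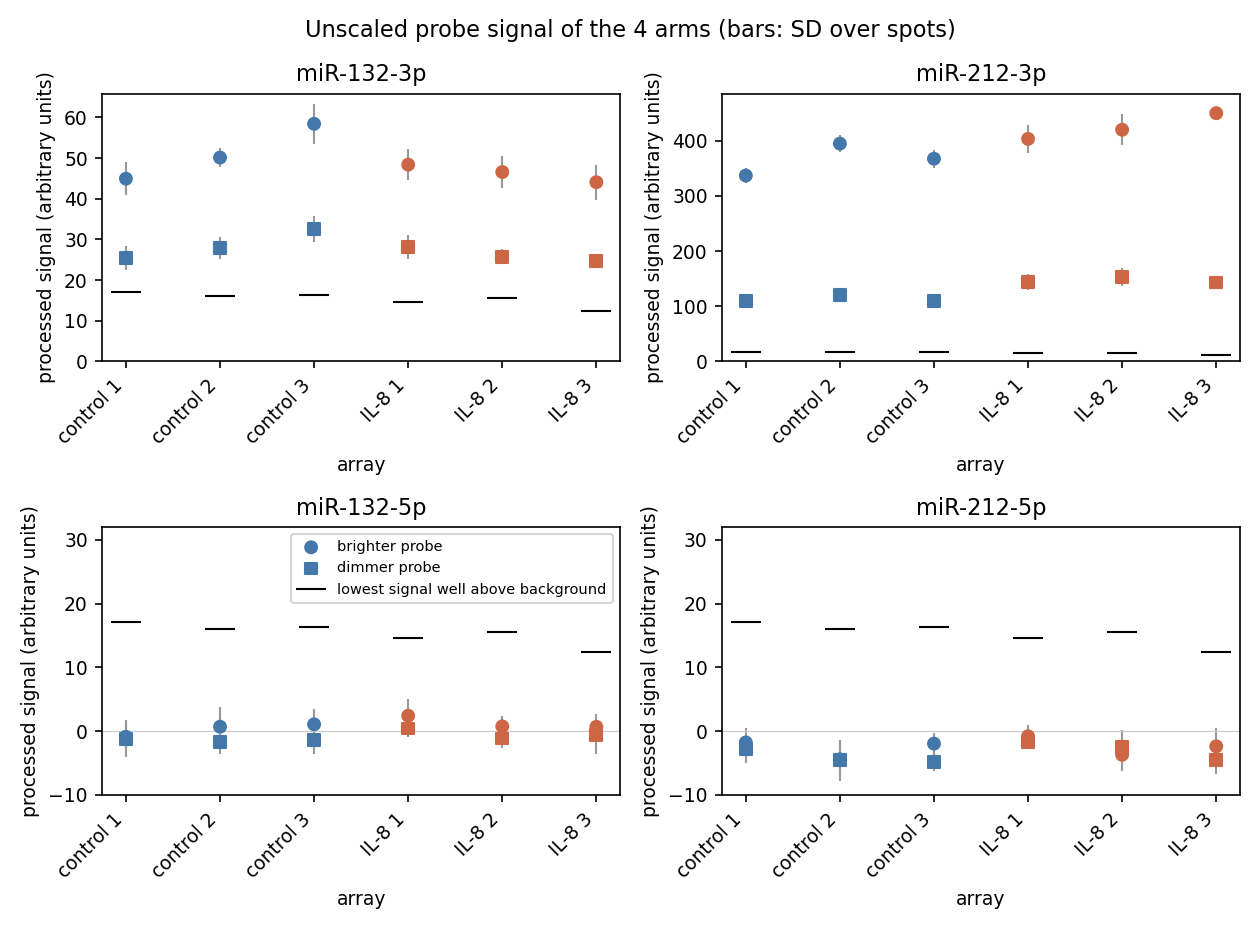
Background-subtracted signal (arbitrary units) of the 2 probes of each arm on each of the 6 arrays, with bars for the SD over spots and black dashes for the lowest signal called well above background on that array. The 5p arms lie near 0 on all arrays, miR-132-3p overlaps between control (blue) and IL-8 (orange), and miR-212-3p is higher on each IL-8 array before any scaling.

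Arrays are compared after division by the 75th percentile of the 264 probes well above background on all of them, and the log2 levels below are relative to it. That percentile was itself higher on the IL-8 arrays, at 569, 549 and 540 against 440, 475 and 497, a ratio of 1.18. The spike-in RNAs differed by 0.025 (log2) between the groups. The scaled levels therefore state each miRNA relative to the other miRNAs of its array, and in RNA from whole cultures fewer expressing cells and less RNA per cell cannot be told apart.

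On this scale miR-132-3p stood at log2 levels of -3.70, -3.67 and -3.51 in control and -3.95, -3.99 and -4.03 with IL-8. Every IL-8 array was below every control array, and control array 3 was again the highest. The group means were -3.63 ± 0.10 and -3.99 ± 0.04 (SD over 3 samples of each group), a log2 difference of -0.36 ± 0.07 (SE) or 0.779-fold (95% interval 0.700 to 0.866 from the limma fit). The longer probe gave -0.37 and the shorter -0.35. This is the value that chose the locus. The fit called 1 of the 2 arms that could be tested, miR-132-3p, lower, and 2.99% of the 167 tested miRNAs were called lower. The groups of 29.9% of these miRNAs did not overlap, 13.8% with IL-8 below control. Nothing is read from these shares, since the locus was taken for this difference. The call was lost when control replicate 2 or IL-8 replicate 1, 2 or 3 was left out, although the difference then ranged only from -0.38 to -0.34.

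The levels of miR-212-3p, the partner with the same seed, overlapped between the groups under percentile scaling, but not with quantile normalization (a difference of 0.12) or without IL-8 replicate 1 (0.11). Its log2 levels were -1.20, -1.12 and -1.31 in control and -1.24, -1.12 and -1.09 with IL-8. Control array 3, the highest for miR-132-3p, was the lowest for miR-212-3p. The log2 difference was 0.062 ± 0.07 (SE), or 1.04-fold (95% interval 0.931 to 1.17). Its probes disagreed in direction, at 0.14 for the 13-base probe and -0.019 for the 14-base probe, and the groups overlapped in both.

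The ratio of miR-132-3p to miR-212-3p within an array does not depend on how arrays are scaled by a common factor. With the control mean set to 0, the log2 ratio was -0.088, -0.13 and 0.22 on the control arrays and -0.29, -0.45 and -0.53 on the IL-8 arrays. All IL-8 arrays were lower, and control array 3 again lay apart from the other two. The mean difference was -0.42, a ratio of 0.746-fold of control, against an SD of 0.19 in control and 0.12 among the IL-8 arrays. It lay between -0.51 and -0.33 over the 4 pairs of probes, with no overlap between the groups in any pair. Without control replicate 3 it was -0.31. The ratio does not show which of the arms moved. It holds the miR-132-3p values that chose the locus, so it is a description and has no test.

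**Figure D2:**
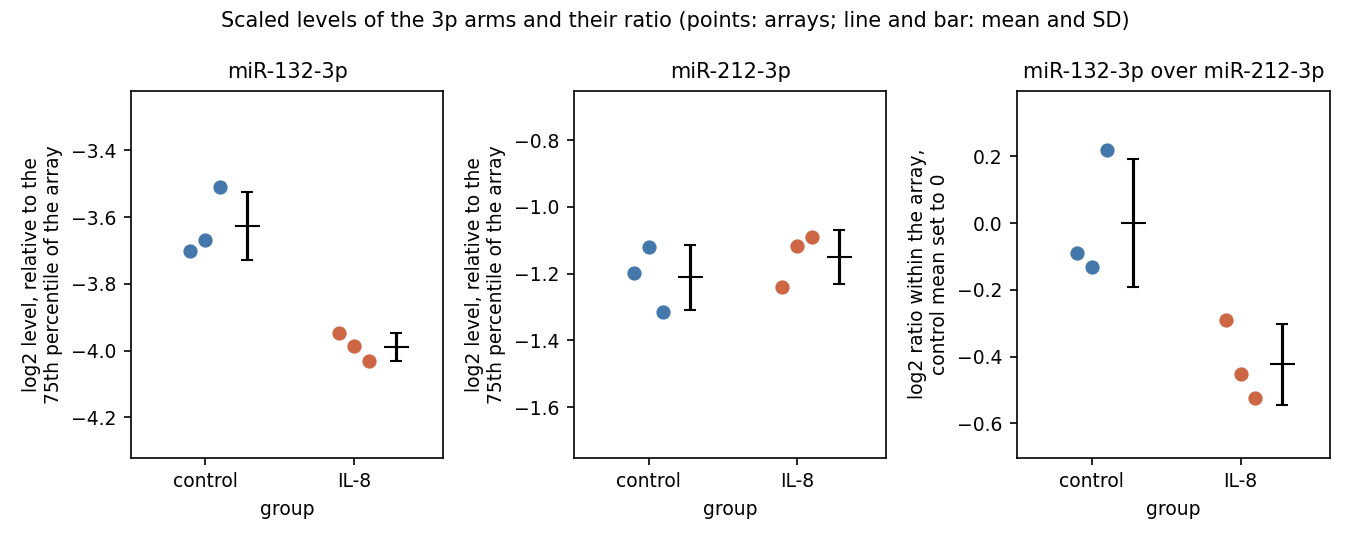
Log2 levels of miR-132-3p and miR-212-3p relative to the 75th percentile of the array, and the log2 ratio of the arms within an array with the control mean at 0 (points are arrays, line and bar are mean and SD, n = 3 each; all panels span the same log2 range). The groups are separate for miR-132-3p and for the ratio and overlap for miR-212-3p.

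Which arm appears to move depends on the scaling. Without scaling miR-132-3p differed by -0.13 (95% interval -0.37 to 0.11) and miR-212-3p by 0.29 (95% interval 0.092 to 0.50). Scaled to the spike-ins, the differences were -0.15 and 0.27. In both settings the groups of miR-132-3p overlapped, those of miR-212-3p did not, and the median of all tested miRNAs lay at 0.24 and 0.22. Relative to that median, miR-132-3p was at -0.36 and -0.37 and miR-212-3p at 0.059 and 0.054, close to the values relative to the median under percentile scaling, -0.38 and 0.045. A common factor per array shifts all miRNAs alike, so this closeness follows from the arithmetic. It does not show which arm moved. With the normexp background, miR-132-3p was at -0.17 and miR-212-3p at 0.084 relative to the median of that setting. The sign of miR-132-3p was negative in all 19 alternative settings, leave-outs included, but its lower level chose the locus. Several settings, such as the total probe signal and the filter, left its value at -0.36, so the 19 are not separate support. The sign of miR-212-3p turned negative when all probes set the 75th percentile and with the brightest probe alone. miR-132-3p was not called in either of these unscaled or spike-in settings, nor with the percentile set by all probes (-0.46, 95% interval -0.88 to -0.037) or without the filter on dim miRNAs, and miR-212-3p was called higher without scaling.

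**Figure D3:**
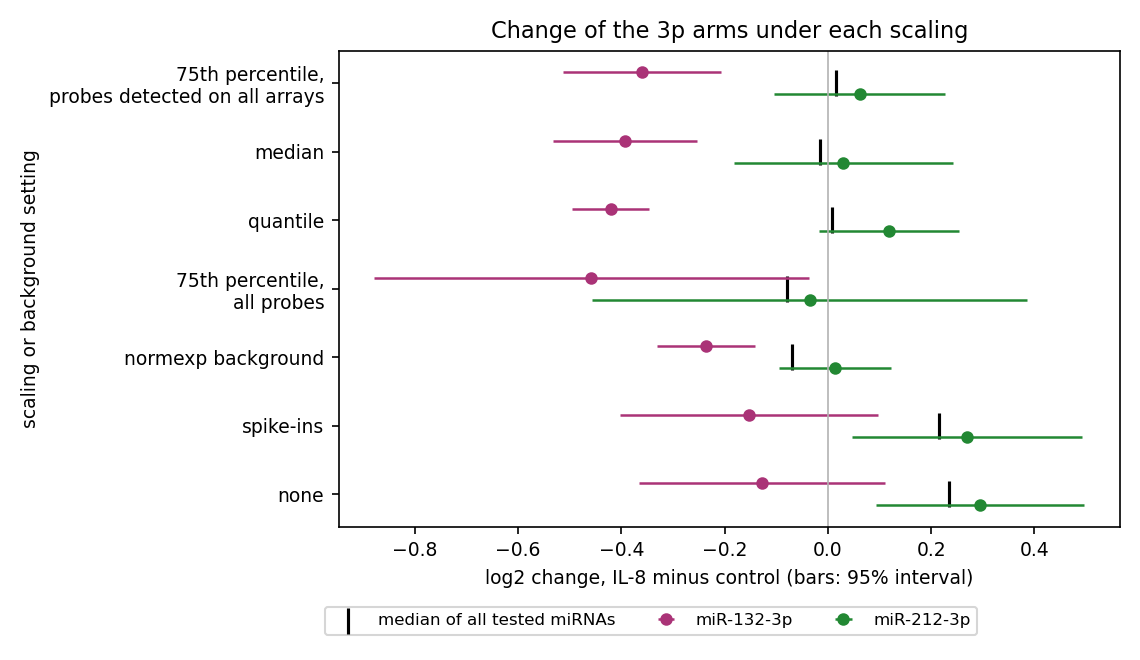
Log2 change (IL-8 minus control, with 95% intervals) of miR-132-3p and miR-212-3p under 7 scaling or background settings, with black bars for the median of all tested miRNAs. The gap between the arms is -0.54 with quantile normalization, -0.25 with the normexp background and -0.42 in the other settings. Both arms shift to the right, with the median, for spike-ins and no scaling, and miR-212-3p is below 0 where all probes set the 75th percentile.

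Across all miRNAs the limma fit with Benjamini-Hochberg adjustment called 10 of 167 (5.99%), 5 higher and 5 lower, and the median log2 change was 0.016. Ordered from the lowest change upward, miR-132-3p was 7th and miR-212-3p 109th. The split of calls moved with scaling, to 8 higher and 9 lower with quantile normalization, 5 and 10 with the median, 50 and 1 without scaling, 31 and 0 with spike-ins, and 1 and 23 with the normexp background.

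The miRNAs whose pattern was most like that of miR-132-3p were named by the smallest root mean square difference between log2 levels, each centred on its own mean over the 6 arrays. They were miR-34c-5p (0.065), miR-1949 (0.067), miR-129-1-3p (0.075), miR-129-2-3p (0.076) and miR-34b-5p (0.079), where the median over all other tested miRNAs was 0.21. miR-34b and miR-34c are neighbours best known as targets of p53, and the miR-129 forms are best known from brain. All 5 were lower with IL-8, by log2 differences of -0.26 (miR-34c-5p), -0.27 (miR-1949), -0.47 (miR-129-1-3p), -0.48 (miR-129-2-3p) and -0.25 (miR-34b-5p), a direction that the choice by likeness fixes. miR-212-3p, despite its shared transcript, was 121st in this order, at 0.25.

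**Figure D4:**
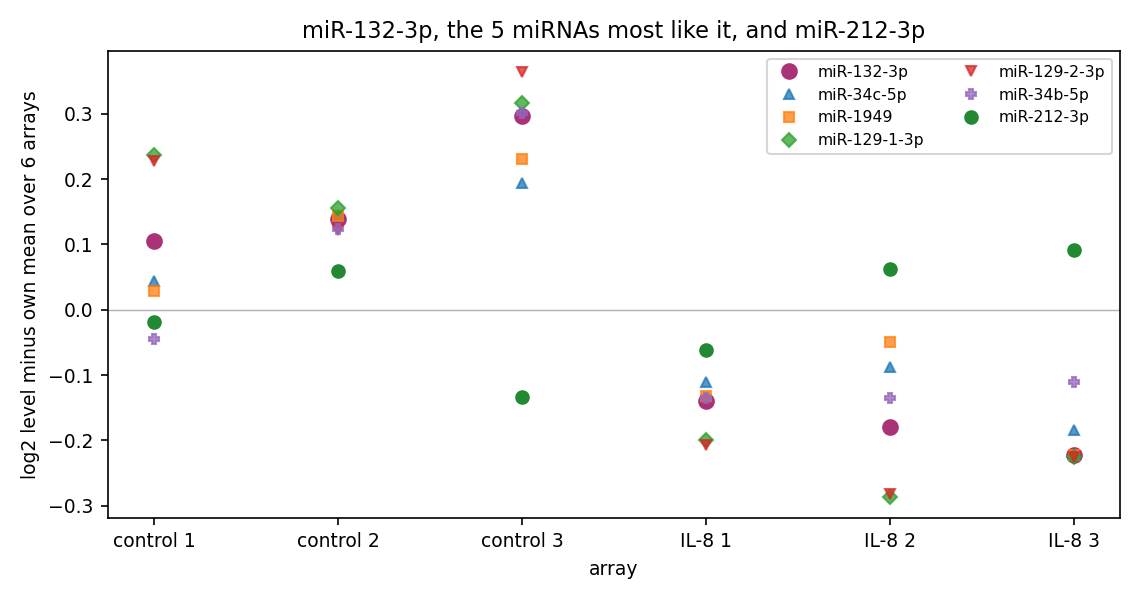
Log2 levels on the 6 arrays, each minus the miRNA's own mean, for miR-132-3p, the 5 miRNAs closest to it and miR-212-3p. The 5 follow miR-132-3p in lying below 0 on all IL-8 arrays, and miR-212-3p is lowest on control array 3, where miR-132-3p is highest.

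Within 1 Mb of the locus the array files place probes for no other miRNA than the arms of miR-22, a miRNA abundant in muscle and stromal cells, 301940 bases downstream in rn4. miR-22-3p had log2 levels of 3.26, 3.30 and 3.30 in control and 3.05, 3.23 and 3.20 with IL-8. All IL-8 arrays were lower, yet the difference of -0.13 ± 0.06 (SE) did not pass (limma adjusted p = 0.266), and it was above 0 without scaling and with spike-ins. miR-22-5p overlapped, at 0.042 ± 0.06 (SE) with limma adjusted p = 0.779. It turned negative when all probes set the 75th percentile and with the normexp background. The intervals of the folds were 0.830 to 1.01 for miR-22-3p and 0.933 to 1.14 for miR-22-5p.

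**Figure D5:**
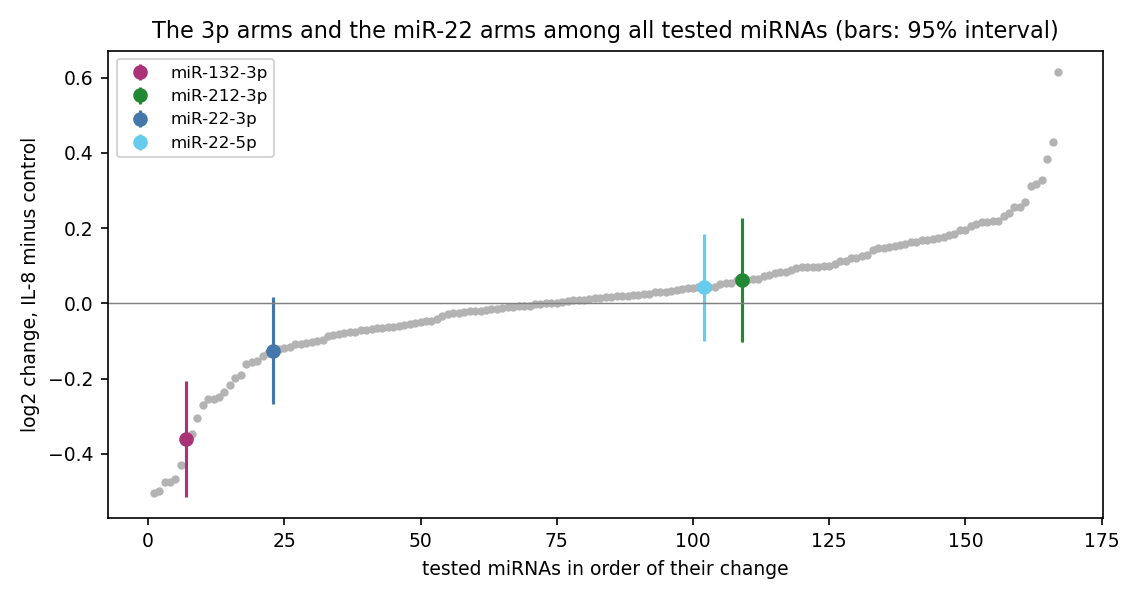
Log2 change (IL-8 minus control) of the 167 tested miRNAs in order of size, with 95% intervals for the 3p arms of the locus and the arms of miR-22. miR-132-3p lies near the low end, and miR-212-3p and both miR-22 arms have intervals that include 0; the order is for percentile scaling, and miR-212-3p and both miR-22 arms change sign under other scalings.

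Other miRNAs linked to the settings in which miR-132 and miR-212 are studied were read from the same fit. Of 26 arms of neuron-enriched or activity-linked miRNAs 6 were well above background and tested, 1 higher and 5 lower (median log2 change -0.11), and 2 passed, both lower. Over all 167 tested miRNAs 94 were higher and 73 lower, with 5.99% called. The 2 arms of the list that passed were miR-129-1-3p (0.720-fold, limma adjusted p = 0.00670) and miR-129-2-3p (0.719-fold, limma adjusted p = 0.0130), whose groups did not overlap. The RefSeq sequence of the first is the start of that of the second, so they are not separate evidence. Each of the 2 values rests on 1 probe. Both calls were lost without scaling, with spike-ins, with the percentile set by all probes, without the filter and without IL-8 replicate 2 or 3, that of miR-129-2-3p also without IL-8 replicate 1, and the list median was above 0 without scaling and with spike-ins, where 1 other arm of the list was called, higher. In innate immune responses miR-132 was described beside miR-146 and miR-155. Of 11 arms induced in such responses, none of them of miR-155, only the arms of miR-21, which also stand in the fibroblast list below, were detected. They had log2 differences of -0.11 (miR-21-3p) and 0.0069 (miR-21-5p), with limma adjusted p = 0.514 and 0.973. The sign of miR-21-3p turned without scaling and with spike-ins, that of miR-21-5p in 6 settings, the median among them, and miR-21-3p was called lower with the normexp background (limma adjusted p = 0.0246, the lowest of its alternatives, which reached 0.998). Of 11 arms of miRNAs that act on FoxO factors or on the ubiquitin ligases of muscle atrophy 3 were tested and none passed by limma at the adjusted threshold or at unadjusted p under 0.05, among them miR-27b-3p at -0.082 (limma adjusted p = 0.488) and miR-27a-3p at 0.089 (limma adjusted p = 0.648). miR-27b-3p was above 0 without scaling and with spike-ins, and miR-27a-3p below 0 when all probes set the percentile.

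The labelled cell type was checked against markers. None of 14 arms of muscle-enriched miRNAs (miR-206, miR-1, miR-499 and those of miR-133a, miR-133b and the miR-208 pair) was well above background on any array, with a highest probe signal of 9.23, so these defining markers of differentiating muscle were not detected. Of 10 arms of fibroblast and smooth muscle miRNAs 8 were detected, and none passed by limma, nor at unadjusted p under 0.05 (median log2 change -0.024, above 0 without scaling, with spike-ins and without control replicate 3). The smallest p among them belonged to miR-145-5p, at -0.083 (limma adjusted p = 0.499), which was above 0 without scaling and with spike-ins. Arms of endothelial miRNAs (0 of 3 detected) and of blood cell miRNAs (0 of 10) gave no signal well above background. Of the 26 arms of neuron-enriched or activity-linked miRNAs 6 were detected, namely miR-128-3p, miR-129-1-3p, miR-129-2-3p, miR-218a-5p, miR-219a-5p and miR-329-3p. Those of miR-9a, miR-124, miR-137 and miR-138 were not well above background on any array.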

How the data were processed

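RNA of 6 samples was read on 1-colour Agilent arrays. The deposited values are spot intensities on a linear scale, extracted per the file headers with Agilent Feature Extraction 10.10.1.1, background subtracted and spatially detrended, and not normalized between arrays. The deposited values of the series matrix equal the same software's total probe signal (relative tolerance 1e-04). Probe means left out outlier spots. They were divided by the array's 75th percentile over 264 probes, raised to at least a log2 level of -5.03 (over arrays, the median of the lowest scaled signal called above background), and put on a log2 scale. Testing needed a probe called well above background on all arrays from 1 group (n = 3), which 167 of 719 miRNAs had, and its value was the mean of such probes. limma 3.58.1 (R 4.3.3, with version 1.17.8 of data.table) compared the groups with Benjamini-Hochberg adjustment and a threshold of 0.05. The fit was tested on simulated data. No rat miRNA spot was saturated, and precision is limited by the number of arrays. Named were the 4 arms, miRNAs within 1 Mb or of the same seed, and the 5 most like miR-132-3p. Of each list, those past the threshold were named, or else the 2 of smallest p. The arms of miR-9a, miR-124, miR-137 and miR-138, and the other detected arms of the neuronal list, were named after their values were seen. The members and lists were chosen with earlier results of these data known. The alternatives were other scalings, background, signal, probe, filter, floor and outlier rules, a replicate block and leaving out each array. Mature sequences of all 4 arms were found in the RefSeq table.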

Additional observations from a re-analysis of the deposited data

How the results depend on the processing

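The count of called miRNAs, 10, was 17 with quantile normalization, 24 with the normexp background, 31 with spike-ins, 51 without scaling, 1 with no filter on dim probes and 0 when all probes set the 75th percentile (9 at unadjusted p under 0.05 by limma). Leaving out 1 array gave 1 (without IL-8 replicate 2 or 3) to 29 (without control replicate 3). miR-132-3p, at -0.36, moved by more than its SD between arrays, pooled within the groups, to -0.46 with that percentile, -0.24 with normexp, -0.15 with spike-ins and -0.13 without scaling. For miR-212-3p such values were -0.036, with that percentile, 0.27 and 0.29, with spike-ins and without scaling. The difference between the arms, -0.42, moved by more than its pooled SD with normexp, to -0.25, and by less with quantile normalization, to -0.54, and the brightest probe, to -0.35. The normexp setting adds an offset of 50 to each spot. That difference was chosen after seeing the data and holds the values that chose the locus. It was below 0 without overlap of the groups in all 13 settings other than leave-outs and all 6 leave-outs. Most of these could not come out otherwise. A common factor per array, the filter, the floor and the replicate block left it at -0.42, and leaving out an array cannot create overlap. With all arrays, only quantile normalization, normexp, the brightest probe and keeping outlier spots (-0.41) gave another value. Leave-outs gave -0.38 to -0.30 for miR-132-3p, 0.015 to 0.11 for miR-212-3p and -0.49 to -0.31 for their difference. The same-numbered samples of the groups are not stated to be paired, and their deviations correlated at 0.29, 0.33 and 0.086, with control 3 closest to another number. With the replicate block 8 miRNAs were called, and the differences of the arms stayed at -0.36 and 0.062, the first no longer called. The cause of the other moves was not tested. Signals near background limit what can be said of both 5p arms.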
